A study of Homo sapiens with 32 samples.

Results

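Among the 57773 rows of the gene count table, 42 were lower after tamoxifen in LNCaP cells carrying an activating chromatin modifier and higher after tamoxifen in LNCaP cells carrying the repressive version of the same construct. The rows were chosen on these values. CPM was each row's count scaled to a library of 1000000 counts, and a ratio was the mean CPM of 4 tamoxifen libraries over that of 4 vehicle libraries of a line. A row was kept at a mean of 20 CPM or more under vehicle in both lines, a ratio of 0.67 or less in the activating line and of 1.5 or more in the repressive line. Of 2584 rows at that level, 47 met both ratios, and 5 were left out by name: LGALS8-AS1, SH3BP5-AS1, ST7-AS1 and RAD21-AS1, as numbered antisense genes, and 1 gene that the rule excludes. Among the 2467 rows at that level whose names the rule allows, 1135 met the activating ratio and 74 met the repressive ratio, each counted alone. The activating ratio was thus common among these rows, and the repressive ratio was the narrower condition. The opposite pattern, with the ratios exchanged between the lines at 1.5 or more and 0.67 or less, was met by 39 rows.

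LNCaP is an androgen-sensitive prostate cancer line that was established from a lymph node metastasis. The androgen receptor is a ligand-activated transcription factor whose DNA-binding domain recognises the androgen response element, an inverted repeat of 6 bases around a spacer of 3. Such elements are known near genes that androgen raises in prostate cells, KLK3 among them. The constructs, called MACCs, join the DNA-binding domain of the androgen receptor to a 3X FLAG tag and to ERT2, a form of the estrogen receptor's ligand-binding domain that lets tamoxifen carry the protein into the nucleus. They lack the receptor's N-terminal region. The neutral construct (3X) holds no further domain, the repressive construct adds KRAB, which recruits histone H3 lysine 9 methylation, and the activating construct adds VP64, a transcriptional activator. The study compared them to ask how chromatin around androgen response elements governs expression.

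There were 8 groups of 4 libraries: parental LNCaP, and LNCaP lines kept under blasticidin with the 3X, KRAB or VP64 construct, each after 48 h with 2.5 µM tamoxifen or with ethanol vehicle. The labels call the 4 libraries biological replicates and give nothing on separate cultures, so that p-values measure the spread between these libraries. Each construct was carried by 1 stable line, so the construct and its line cannot be told apart. The row of ESR1, which supplies ERT2, held 66 to 159 counts in every library of the construct lines and 0 to 2 in every parental library. All 12 LNCaP and luminal marker genes were detected, while TP63, CAV1 and CDH2 among 6 basal and mesenchymal markers and 5 of 7 stromal and leukocyte markers were at 0 in all 32 libraries. Library totals ran from 454996 to 1164823 counts, and the 42 rows had a median of 37 counts per library, with values from 0 to 1851. In bulk RNA, fewer cells expressing a gene and less RNA per cell cannot be told apart.

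A property of the table bears on every row named here. The libraries came from a strand-specific kit, and the rows of several genes known to be abundant held few counts. FTH1, a ferritin subunit, had a mean of 28.5 CPM over the 32 libraries while BEST1, whose exons overlap FTH1 from the other strand, had 38111. GAPDH had 97.5 CPM against 25745 for the feature opposite it. MT-ND6, whose coding strand differs from that of the other 12 mitochondrial protein genes, had 6817 CPM against a median of 233 for these. At these loci the reads lay on the row of the strand opposite to the abundant transcript. EEF1A1 and MALAT1 were also low, at 99.4 and 7.83 CPM, but so were the rows opposite them, at 0.236 and 0.723 CPM. The strand setting of the counting is not given in the sources used here. A symbol below therefore names a row of the table, and reads of the gene and of RNA from the other strand cannot be told apart for it.

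The scale of CPM also moved with the activating construct. BEST1's row alone held 2.41% of all vehicle counts and 11.3% of all tamoxifen counts of the activating line, and 2.50% and 3.29% of those of the repressive line. The median ratio of the rows at 20 CPM or more was 0.703 in the activating line, a log2 shift of -0.51, against 0.923 in the repressive, 0.915 in the neutral and 1.01 in the parental line. Under TMM scaling, which sets libraries on the bulk of their genes, that median was 0.871 in the activating line. The TMM ratios of the 42 rows ran from 0.0807 to 0.836 in the activating line. In the repressive line they ran from 1.70 to 3.92. The rows were chosen on ratios from the same libraries, and TMM only rescales whole libraries. Nothing is therefore read from the rows staying below or above 1. With the rule applied to TMM-scaled CPM, 26 of the 42 rows still met it.

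Sequences around the members were searched for the element that the constructs' DNA-binding domain recognises. The motif was AGAACA and TGTTCT around a spacer of 3 free bases, which reads the same on both strands, with at most 1 mismatch among its 12 fixed bases, within 25 kb either side of the annotated gene start in GRCh37. Of the 40 members found in the annotation, 4 (10%) held a site, against 15.7% of 2472 rows at 20 CPM or more. There were 5 sites and none matched all fixed bases. They are shown because they are all the near matches found, each with 5 flanking bases, on the plus strand, with the fixed bases that matched in capitals.
H2AFY, chr5:134755789-134755813, 20.2 kb before the start and outside the gene: atttgAGAACAaatTGTTCatgtaa
MED28, chr4:17599417-17599441, 16.8 kb before the start and outside the gene: gaggtAGAACAtacTGTcCTacatc
SLC26A10, chr12:58023039-58023063, 9.7 kb after the start and outside the gene: ggacaAGAACAgaagGTTCTtacct
THBS1, chr15:39863962-39863986, 9.3 kb before the start and outside the gene: atttcAGAAtAgaaTGTTCTcacac
THBS1, chr15:39879489-39879513, 6.2 kb after the start and inside the gene: tctaaAGAACAgctTGTcCTaatca

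RefSeq promoters of GRCh38.p14, each of 300 bases from 250 before to 50 after the start, were held for 22 members. None contained the single hexamer TGTTCT or its reverse complement AGAACA, against 14.8% of 35116 promoters. The median GC content of the 250 bases before the start was 64.6% over the members and 58% over all promoters. The letters say nothing about binding elsewhere. The stretches before the starts of H2AFY, the GC-rich promoter of a histone variant gene, and of ELF3, a member that also passed the test in the neutral line, are given on their coding strands.
H2AFY, GRCh38.p14 chr5:135399232-135399481, minus strand: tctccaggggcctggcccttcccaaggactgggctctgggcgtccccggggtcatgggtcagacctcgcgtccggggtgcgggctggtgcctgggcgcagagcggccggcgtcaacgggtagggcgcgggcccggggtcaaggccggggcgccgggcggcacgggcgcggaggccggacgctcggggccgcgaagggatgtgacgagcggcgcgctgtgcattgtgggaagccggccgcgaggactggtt
ELF3, GRCh38.p14 chr1:202010337-202010586, plus strand: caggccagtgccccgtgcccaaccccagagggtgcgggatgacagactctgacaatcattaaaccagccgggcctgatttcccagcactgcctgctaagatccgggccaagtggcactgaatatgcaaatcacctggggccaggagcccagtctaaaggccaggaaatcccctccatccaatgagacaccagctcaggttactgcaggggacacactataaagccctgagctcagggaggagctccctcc

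The 2 ratios that define the set are given as a description, without a test. In the activating line the ratio ran from 0.0656 (CTB-79E8.2) to 0.668 (VPS37A) with a median of 0.441. It was 0.5 or less in 26 rows and 0.25 or less in 13. In the repressive line it ran from 1.504 (HIST2H3A) to 3.51 (RP11-295D4.1) with a median of 1.66, and 7 rows reached 2. The 2 ratios had a Spearman correlation of 0.0459 over the 42 rows, given as a description over rows that share libraries. The 42 rows together took 0.515% ± 0.0372 of all counts in the activating line under vehicle and 0.212% ± 0.0158 under tamoxifen (SD, n = 4 each). They took 0.493% ± 0.0121 and 0.909% ± 0.0554 in the repressive line.

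**Figure D1:**
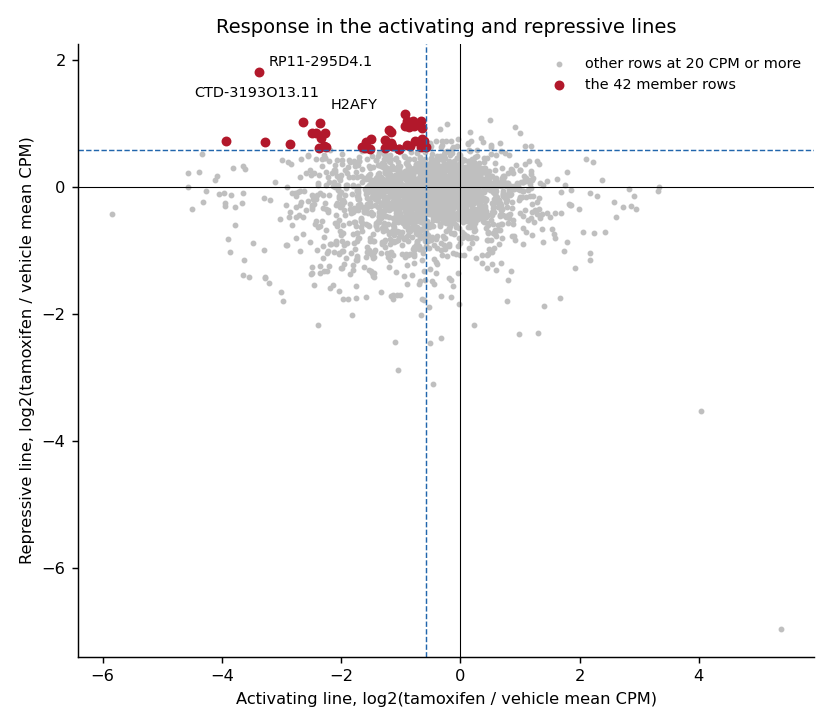
Each point is a row at 20 CPM or more whose name the rule allows (2467 rows, the 42 members in red), with the log2 ratio of mean CPM in tamoxifen over vehicle libraries for the activating line (x) and the repressive line (y). Dashed lines mark the ratios 0.67 and 1.5, the members fill the upper left corner by construction, and RP11-295D4.1 lies farthest from the rest of them.

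The 4 tamoxifen libraries lay below all 4 vehicle libraries in 30 members in the activating line, where 36.3% of the 3985 tested genes did so. In the repressive line they lay above all vehicle libraries in 26 members, against 4.69% of tested genes. The rule used these contrasts, so nothing is read from those counts. Both lines separated in 24 members, and neither did in 10. Just inside the activating limit were THOC6 at 0.649, MIR3615 at 0.653 and VPS37A at 0.668, and just outside it were JMJD4 at 0.686, CTD-3193O13.1 at 0.700 and RP11-146F11.1 at 0.703. At the repressive limit, HIST2H3A at 1.504, EIF4B at 1.52 and CUL5 at 1.52 were inside, and UBB at 1.496, DIDO1 at 1.495 and BRICD5 at 1.494 were outside.

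The histone variant gene H2AFY, now named MACROH2A1, gave 1 of the 3 pairs of ratios that passed 0.5 in the activating and 2 in the repressive line. Its protein, macroH2A1, replaces H2A in nucleosomes and is known for its place on silent chromatin. The row is on chromosome 5 from 134670071 to 134735604 in GRCh37, on the minus strand, and 28.6% of its exonic bases overlap exons of opposite-strand genes, mostly PITX1-AS1. With VP64 it had 242, 237, 237 and 229 CPM under vehicle and 44.6, 48.2, 28.3 and 63.0 under tamoxifen. With the repressive construct it had 234, 247, 253 and 226 CPM under vehicle and 538, 476, 460 and 447 with tamoxifen. The vehicle libraries of both lines sat within one narrow band. The tamoxifen libraries lay outside it in the directions that the rule requires, 5.14-fold lower and 2.001-fold higher. In the neutral line the means were 214 ± 24.9 and 244 ± 51.5 CPM and in the parental line 218 ± 14.7 and 228 ± 1.80 (SD, n = 4), with adjusted p = 0.116 and 0.946 (edgeR).

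ELF3 encodes an epithelium-specific ETS transcription factor. Its row, on chromosome 1 from 201977073 to 201986311, had 157, 144, 145 and 95.7 CPM under vehicle and 21.5, 20.9, 31.6 and 27.2 under tamoxifen with VP64. The repressive line gave 155, 147, 130 and 109 CPM for vehicle and 255, 234, 220 and 262 for tamoxifen. The groups did not overlap in either line, and the activating ratio was 0.187 with the repressive at 1.80. ELF3-AS1, on the other strand over 9.24% of its exonic bases, had a mean of 8.33 CPM.

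Further rows were named for chromatin and transcription genes. MED28, a subunit of the Mediator complex that links transcription factors to RNA polymerase II, had 42.8, 51.2, 44.2 and 59.8 CPM under vehicle in the activating line and 3.31, 3.21, 6.66 and 7.16 under tamoxifen. Under KRAB the vehicle libraries had 44.8, 36.7, 40.4 and 42.2 CPM and the tamoxifen libraries 70.8, 60.2, 73.8 and 62.6. The MED28 means were 9.73-fold lower and 1.63-fold higher under tamoxifen. The row was near the floor in the activating tamoxifen libraries, at 2 to 5 counts each, so the 9.73-fold difference rests on few counts. HMGN2, a nucleosome-binding protein that loosens chromatin, had ratios of 0.204 and 1.56, and 1 of its repressive tamoxifen libraries (23.7 CPM) lay among the vehicle libraries. Its activating tamoxifen libraries also held only 2 to 5 counts each. PHC3, a Polycomb repressive complex 1 subunit, had ratios of 0.418 and 1.67 at means of 24.1 ± 5.69 and 24.9 ± 5.85 CPM under vehicle. CNOT2, of the CCR4-NOT deadenylase complex, had ratios of 0.4497 and 1.57, with overlapping groups in the activating line. HIST2H3A, a histone H3 gene with near-identical copies between which reads can be split, was at 0 in 1 repressive vehicle library and at 18.8 to 35.1 CPM in the other 3, so its ratio of 1.504 rested on that library. HOXA10-AS, whose exons lie partly opposite those of HOXA10, had ratios of 0.641 and 1.896.

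Another group of rows bore the names of genes for ribosomes, translation and RNA processing. RPL41, a small protein of the large ribosomal subunit, had 43.4, 52.3, 56.0 and 61.7 CPM with vehicle and 37.6, 16.7, 27.8 and 29.9 with tamoxifen in the activating line. Repressive-line libraries held 46.0, 45.1, 33.3 and 55.6 CPM under vehicle against 126, 87.3, 75.1 and 60.3 with tamoxifen. The groups were separate in both lines, with the nearest repressive libraries 55.6 and 60.3 CPM, and ratios of 0.525 and 1.94. RPL28, another large-subunit protein, overlapped in both lines, with ratios of 0.555 and 1.56 at means of 35.0 ± 12.7 and 35.7 ± 7.03 CPM under vehicle. Over the 32 libraries the rows of RPL41 and RPL28 had means of 56.4 and 41.2 CPM, below the low rows of GAPDH and EEF1A1. No annotated exon lies opposite either gene. Whether these rows follow the ribosomal protein mRNAs was not tested. EIF4B, a cofactor of the initiation helicase eIF4A, had ratios of 0.493 and 1.52. The spliceosome genes PPIL2 and PRPF8 had activating ratios of 0.355 and 0.332 and repressive ratios of 1.68 and 1.53. THOC6, of the THO complex that couples transcription to mRNA export, had ratios of 0.649 and 1.66 with overlap in both lines.

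HEATR1, which is needed for ribosomal RNA synthesis and processing, was the member with the highest counts. The row, on chromosome 1 from 236712305 to 236767816, had 992, 980, 980 and 1079 CPM under vehicle in the activating line and 617, 561, 596 and 558 under tamoxifen. Cells with KRAB showed 1097, 943, 942 and 948 CPM under vehicle and 2338, 1998, 1766 and 1940 with tamoxifen. The ratios were 0.578 and 2.05. Its exons overlap those of LGALS8, a galectin gene, by 2095 bases, and LGALS8-AS1, left out by name, also lies opposite LGALS8. LGALS8 had a mean of 717 CPM, or 75.8 CPM per exonic kb against 134 for HEATR1, and went from 726 to 544 CPM in the activating line and from 748 to 606 in the repressive line. In the repressive line the rows of HEATR1 and LGALS8 thus differed in direction.

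Genes of the cell surface, signalling and protein turnover made up another group. THBS1 encodes thrombospondin 1, a secreted matrix glycoprotein that restrains angiogenesis. It had 120, 89.5, 118 and 118 CPM with vehicle and 18.2, 27.3, 9.98 and 5.73 with tamoxifen in the activating line. For the repressive line the values were 111, 129, 89.3 and 99.1 CPM with vehicle and 186, 173, 148 and 179 with tamoxifen, so that no group overlapped its counterpart. B3GALT6, a galactosyltransferase that builds the linker of proteoglycans, had ratios of 0.193 and 1.53, with vehicle means of 128 ± 14.5 and 126 ± 22.4 CPM. FSIP1, the partner that overlaps THBS1 most, had a mean of 0.0467 CPM, and no annotated exon lies opposite B3GALT6. Since the rows of abundant genes can themselves be low in this table, a near-empty partner row does not show which strand the reads came from.

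PTMS, parathymosin, is a small acidic nuclear protein. The VP64 line had 209, 148, 177 and 200 CPM under vehicle and 29.8, 38.6, 24.96 and 37.2 under tamoxifen. With the repressive construct it had 201, 182, 172 and 191 CPM under vehicle and 406, 345, 229 and 358 with tamoxifen, with the third library nearest the vehicle range. No annotated exon overlaps PTMS on the other strand. PTP4A1, a phosphatase of the PRL family, had 36.8, 27.0, 26.5 and 25.6 CPM with vehicle and 18.2, 14.5, 18.3 and 12.9 with tamoxifen in the activating line. It had 20.2, 28.5, 27.6 and 26.2 CPM under vehicle and 39.2, 60.2, 52.7 and 46.2 under tamoxifen in the repressive line. The groups of PTP4A1 were separate in both lines, at low counts. CUL5, the scaffold of a family of ubiquitin ligases, had ratios of 0.493 and 1.52 with overlap in both lines.

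LRRC34, a leucine-rich repeat gene, and the lncRNA RP11-362K14.5 lie 12669 bases apart on chromosome 3, and PHC3 lies 273746 bases beyond LRRC34. LRRC34 had 29.7, 32.7, 22.1 and 32.5 CPM with vehicle and 14.9, 19.3, 11.6 and 15.8 with tamoxifen in the activating line. It had 15.9, 27.2, 27.6 and 18.9 CPM under vehicle and 56.9, 28.3, 60.6 and 53.7 under tamoxifen in the repressive line, with 1 tamoxifen library barely above the highest vehicle library. RP11-362K14.5, opposite the zinc finger gene MYNN, held closely spaced values within each group. It had 560, 638, 653 and 622 CPM with vehicle and 273, 291, 246 and 272 with tamoxifen in the activating line. The repressive line gave 721, 662, 597 and 603 CPM for vehicle and 1318, 1208, 1130 and 1169 for tamoxifen. These 3 neighbours on chromosome 3 shared the direction that the rule requires, with activating ratios of 0.526, 0.438 and 0.418.

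Of the 40 members in the annotation, 15 were lncRNAs (37.5%, against 26.9% of the rows at 20 CPM or more), 24 were protein coding (60%, against 67.2%) and 1, SLC26A10, was a pseudogene. RP11-295D4.1, on chromosome 16 from 4385871 to 4387819, ranked first by the smaller of its 2 log2 ratios. It had 42.8, 28.4, 16.2 and 27.3 CPM with vehicle and 6.61, 1.61, 0 and 2.86 with tamoxifen in the activating line, a ratio of 0.0966. Under KRAB the vehicle libraries had 30.3, 20.4, 17.0 and 30.6 CPM and the tamoxifen libraries 78.3, 77.9, 85.6 and 103. The row was near the floor in every activating tamoxifen library, at 0 to 4 counts, and was the only member with a repressive ratio above 3. Of its exonic bases 56.1% lie opposite GLIS2, a zinc finger gene, which had a mean of 83.2 CPM and went from 115 to 50.9 CPM in the activating line and from 112 to 55.4 in the repressive line. GLIS2's row was thus lower under tamoxifen in both lines.

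CTD-3193O13.11 ranked second. It had 228, 202, 139 and 173 CPM with vehicle and 33.1, 37.0, 31.6 and 17.2 with tamoxifen in the activating line. Repressive-line libraries held 173, 182, 176 and 185 CPM under vehicle against 334, 384, 324 and 412 with tamoxifen. The difference was 6.24-fold downward and 2.03-fold upward, with no overlap. All of its exonic bases lie opposite PRR36, which had a mean of 1.14 CPM.

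RP11-597D13.9, annotated as GASK1B-AS1, had 310, 304, 193 and 244 CPM with vehicle and 51.3, 62.7, 36.6 and 68.7 with tamoxifen in the activating line. Cells with KRAB showed 243, 251, 262 and 220 CPM under vehicle and 418, 398, 436 and 503 with tamoxifen. All groups were separate. RP4-594I10.3, annotated as NCMAP-DT and lying mostly opposite the calcineurin regulator RCAN3, had 356, 369, 385 and 425 CPM with vehicle and 169, 164, 183 and 169 with tamoxifen in the activating line. For the repressive line the values were 374, 365, 361 and 377 CPM with vehicle and 700, 695, 672 and 635 with tamoxifen. These were among the tightest groups of the set. RP11-2C24.6, which was not found in the annotation, had 111, 111, 103 and 101 CPM with vehicle and 51.3, 53.0, 61.6 and 63.0 with tamoxifen in the activating line. It had 120, 129, 115 and 114 CPM under vehicle and 272, 232, 230 and 242 under tamoxifen in the repressive line.

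The lncRNA with the lowest activating ratio of all members, CTB-79E8.2 at 0.0656, lies opposite the ubiquitin ligase gene NEURL1B and had 59.2 ± 6.38 CPM under vehicle and 3.88 ± 1.78 under tamoxifen (SD, n = 4). Its activating tamoxifen libraries were near the floor, at 1 to 4 counts each, and its repressive ratio was 1.66. RP11-323N12.5 lies wholly within exons of TIMP2, a metalloproteinase inhibitor on the other strand, and had ratios of 0.583 and 1.94. RP11-787I22.3, opposite the stress-responsive gene SESN1, had ratios of 0.445 and 1.62, and RP11-770G2.5, opposite the epithelial transcription factor gene OVOL1, had 0.209 and 1.55. The pseudogene SLC26A10, opposite B4GALNT1, had ratios of 0.333 and 1.62. RP11-680F20.12, not found in the annotation, had 0.198 and 1.70 with separate groups in both lines, at 5 to 6 counts per activating tamoxifen library. CTC-277H1.7 (0.320 and 1.55) and AC106782.20 (0.416 and 1.53) separated in the activating line and overlapped in the repressive line.

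Partners on the opposite strand were counted for the whole set. Exons of 32 of the 40 annotated members (80%) overlapped an opposite-strand exon, against 83.8% of 2359 rows at 20 CPM or more. Of the 31 members whose partner was in the table, 22 (71.0%) had a partner below 10 CPM, against 51.2% of 1889 such rows. Per exonic kb the member exceeded its partner in 23 of 31. Among the 9 with a partner at 10 CPM or more were H2AFY with PITX1-AS1 at 247 CPM, MED28 with FAM184B at 437, PPIL2 with YPEL1 at 111 and EIF4B with TNS2-AS1 at 638. For MED28 the partner was 65.0 CPM per exonic kb against 4.88 for the member, and FAM184B went from 464 to 428 CPM in the activating and from 465 to 348 in the repressive line. Reads of the partner's RNA on a member's row were not tested.

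**Figure D2:**
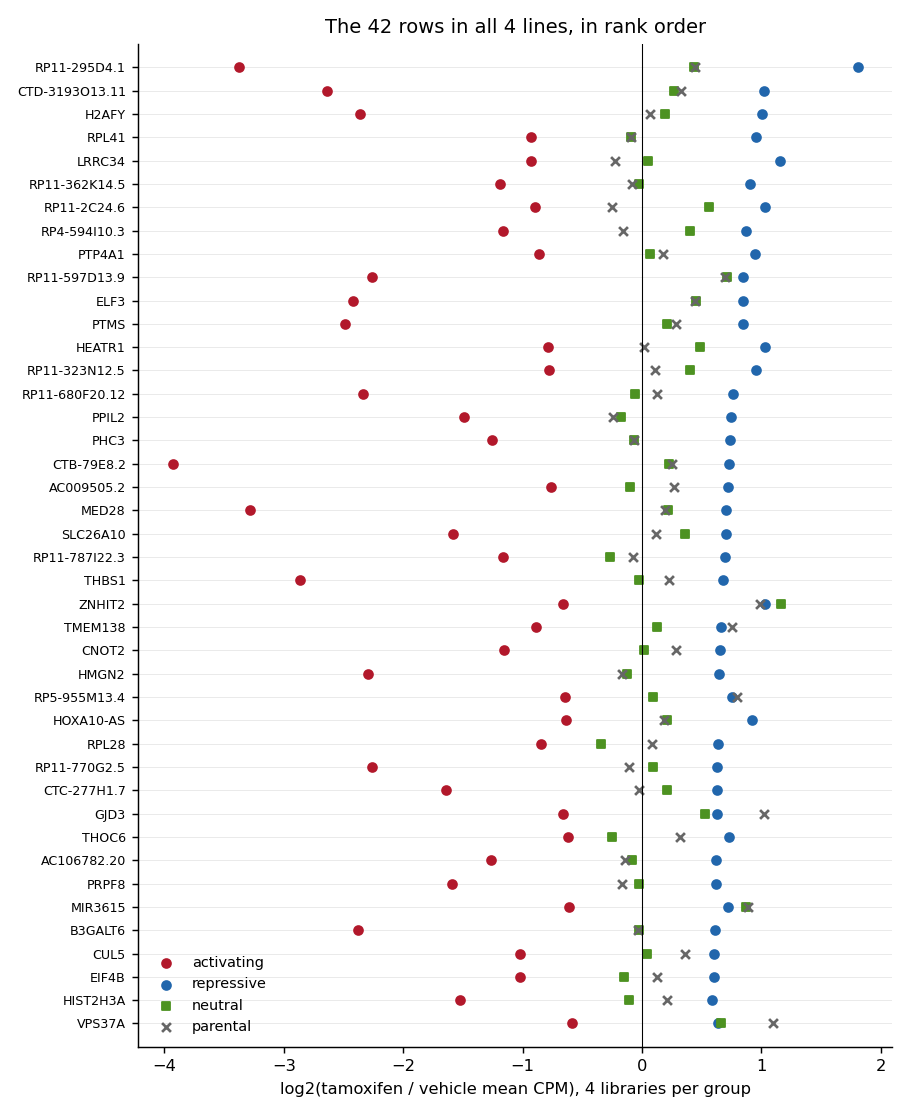
The log2 ratio of mean CPM in 4 tamoxifen over 4 vehicle libraries is plotted for each of the 42 rows in the activating, repressive, neutral and parental lines, in rank order from the top. Activating values lie left of 0 and repressive values right of 0 by construction, while neutral and parental values range from 0.787 to 2.24 and from 0.839 to 2.14 as ratios.

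The neutral and parental lines were not used to choose the set, so each was tested with edgeR's quasi-likelihood method and Benjamini-Hochberg adjustment over 3985 genes, among which all 42 members were. Tamoxifen with the neutral construct raised 8 members and lowered 0 at an adjusted p under 0.05, where 2.61% of tested genes were higher and 2.11% lower. In the parental line, 0 members passed, as did 0.0% of tested genes. The neutral line had 36 of 42 members with a positive log2 fold change, with a median of 0.25 against -0.00 over all tested genes, and 14 at an unadjusted p under 0.05, all higher, where 7.95% of tested genes were higher and 8.88% lower at that p. In the parental line 28 of 42 were positive, with a median of 0.14 against 0.01 over all tested genes. There 7 members reached an unadjusted p under 0.05, all higher. Of tested genes, 4.29% were higher and 3.39% lower at that p in the parental line (306 genes in either direction). DESeq2 also called 0 members there. In the count test without a low-count filter, 4 parental members passed: RP11-597D13.9, ZNHIT2, GJD3 and MIR3615. Without parental vehicle replicate 1, RP11-597D13.9 passed. With the replicate number as a block, RP11-597D13.9, ZNHIT2 and GJD3 passed. The shares of all genes called under these alternatives were not counted here, so these calls are not set against a background.

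HEATR1 gave the clearest change in the neutral line. It had 1188, 1294, 1281 and 1320 CPM under vehicle and 1315, 1725, 1879 and 2203 under tamoxifen, a log2 fold change of 0.60 (SE 0.0722, adjusted p = 2.16e-05, edgeR). The first tamoxifen library lay inside the vehicle range in CPM. In the parental line HEATR1 had a mean of 1029 ± 99.0 CPM under vehicle and 1042 ± 34.6 under tamoxifen, and a log2 fold change of 0.00 (SE 0.0901).

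ELF3 rose by a log2 fold change of 0.59 (SE 0.117, adjusted p = 0.00455, edgeR) in the neutral line. Its CPM was 128, 127, 152 and 123 under vehicle and 157, 194, 197 and 179 under tamoxifen, with no overlap. The parental values were of a similar size, 147, 163, 169 and 187 CPM against 202, 225, 251 and 229, a log2 fold change of 0.44 (SE 0.127) whose adjusted p was 0.425. The groups of ELF3 did not overlap in any of the 4 lines, higher under tamoxifen in 3 and lower in the activating line.

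RP4-594I10.3 rose by 0.52 (SE 0.102, adjusted p = 0.00503, edgeR) in the neutral line, from a mean of 417 ± 35.0 to 552 ± 128 CPM. RP11-2C24.6 rose by 0.67 (SE 0.139, adjusted p = 0.00655), with 117, 138, 120 and 125 CPM under vehicle and 126, 153, 217 and 243 under tamoxifen. In both rows tamoxifen replicates 3 and 4 were the high ones. RP11-597D13.9 rose by 0.85 (SE 0.168, adjusted p = 0.0189), from 284, 290, 281 and 265 CPM to 436, 591, 475 and 330. Its parental libraries had 157, 336, 286 and 342 CPM against 411, 483, 471 and 452, a log2 fold change of 0.68 at an adjusted p of 0.336, and neither line's groups overlapped. The remaining calls were CTD-3193O13.11 at 0.40 (adjusted p = 0.0317, edgeR), RP11-323N12.5 at 0.55 (0.0249) and PTMS at 0.34 (0.0495).

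Neutral and parental groups with no overlap were few: 2 members higher in the neutral line (RP11-597D13.9 and ELF3, background 1.58%) and 4 in the parental line (these and ZNHIT2 and GJD3, background 1.88%). Of tested genes, 8.71% were lower without overlap in the neutral line, and 0 members were. HEATR1, ELF3, RP4-594I10.3 and RP11-2C24.6 kept their calls under all 12 alternatives of scaling, filter, test, block and left-out library. The calls of CTD-3193O13.11 and RP11-597D13.9 held in 7 of 12 and those of PTMS and RP11-323N12.5 in 5, with adjusted p up to 0.139, and DESeq2 ended those of CTD-3193O13.11 and PTMS. The count of neutral calls was 4 without vehicle replicate 1, vehicle replicate 3 or tamoxifen replicate 3, 5 without vehicle replicate 4 or tamoxifen replicate 1, and 13 without tamoxifen replicate 4. The direction of the calls was upward in each, and the shares of all genes called in these selections were not counted here.

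**Figure D3:**
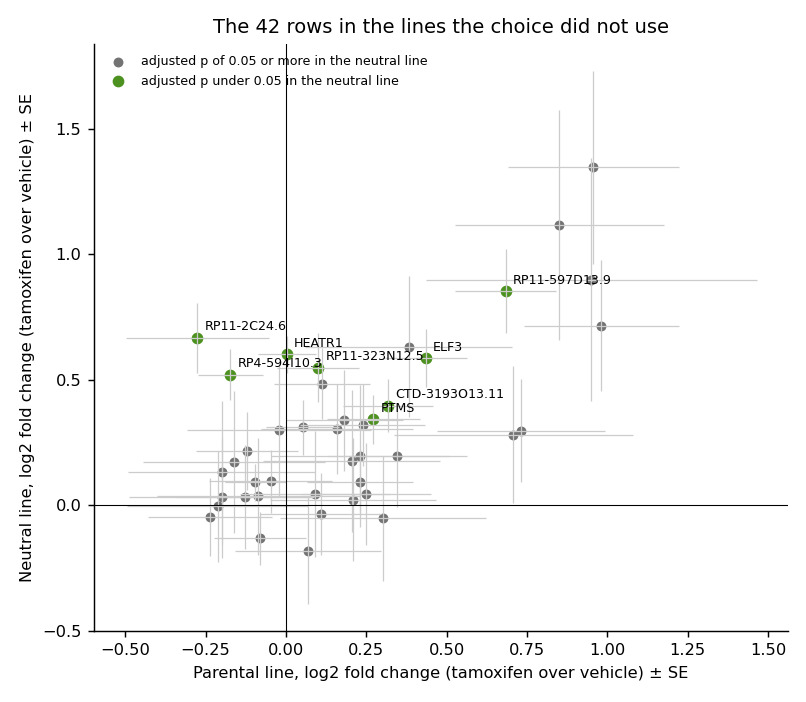
Each of the 42 rows is placed by its edgeR log2 fold change (tamoxifen over vehicle, ± SE) in the parental line (x) and the neutral line (y), with the 8 rows called in the neutral line in green. Most rows lie above 0 on the y axis, and HEATR1, RP4-594I10.3 and RP11-2C24.6 lie above 0 there but near or below 0 on the x axis.

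The difference between the neutral and the parental response was tested as an interaction. It passed in 3 members, all with a larger response in the neutral line, against 0.853% of tested genes in that direction and 0.627% in the other. RP4-594I10.3 differed by 0.72 (SE 0.147, adjusted p = 0.00634, edgeR), since its parental mean was 485 ± 26.04 CPM under vehicle and 433 ± 31.7 under tamoxifen. HEATR1 differed by 0.62 (SE 0.122, adjusted p = 0.00467). RP11-2C24.6 differed by 0.97 (SE 0.256, adjusted p = 0.0434). The calls of HEATR1 and RP4-594I10.3 held in all 20 alternatives and that of RP11-2C24.6 in 6. Removing vehicle replicate 1, 3 or 4 or tamoxifen replicate 1, 3 or 4 of the parental line ended the last call, as did removing any neutral vehicle replicate or neutral tamoxifen replicate 3 or 4, with adjusted p from 0.0228 to 0.157 over all alternatives. For ELF3 and RP11-597D13.9 the interaction was 0.17 and 0.19 (adjusted p = 0.835 and 0.908, edgeR), so a difference between the lines was not detected.

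Between vehicle-treated neutral and parental cells, 5 members differed, all of them higher in the neutral line, where 4.02% of tested genes were higher and 5.72% lower. B3GALT6 had 64.1, 64.0, 76.9 and 65.7 CPM in parental and 151, 216, 164 and 189 in neutral cells, a log2 fold change of 1.39 (SE 0.157, adjusted p = 4.77e-07, edgeR). Its level did not separate by tamoxifen in either line, at log2 fold changes of 0.10 and -0.05. RP11-2C24.6 was higher by 1.15 (adjusted p = 2.12e-05), CTD-3193O13.11 by 0.76 (0.000342), EIF4B by 0.72 (0.00644) and PTMS by 0.41 (0.0435, edgeR). The call of PTMS held in 2 of 12 alternatives and ended when parental vehicle replicate 2, 3 or 4 or any neutral vehicle replicate was removed, while the other 4 calls held in all 12. Groups without overlap numbered 6 higher (background 8.01%) and 3 lower (8.26%), the latter being RP4-594I10.3, MED28 and RP11-770G2.5. A line that carries a construct can differ from its parent also through selection, and the 2 cannot be told apart here.

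The repressive and neutral ratios had a Spearman correlation of 0.405 over the 42 rows, and the neutral and parental ratios 0.444, as a description over rows that share libraries within each line. The ratio was 1.3 or more in the parental, neutral and repressive lines alike in 7 rows: RP11-295D4.1, RP11-597D13.9, ELF3, ZNHIT2, GJD3, MIR3615 and VPS37A. H2AFY, MED28, THBS1, PHC3 and B3GALT6 stayed near 1, with ratios of 1.14, 1.16, 0.983, 0.953 and 0.981 in the neutral line and 1.04, 1.14, 1.17, 0.953 and 0.976 in the parental line. As shares of all counts, the 42 rows took 0.563% ± 0.0226 and 0.684% ± 0.0827 in the neutral line and 0.502% ± 0.0284 and 0.554% ± 0.00504 in the parental line, under vehicle and tamoxifen.

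**Figure D4:**
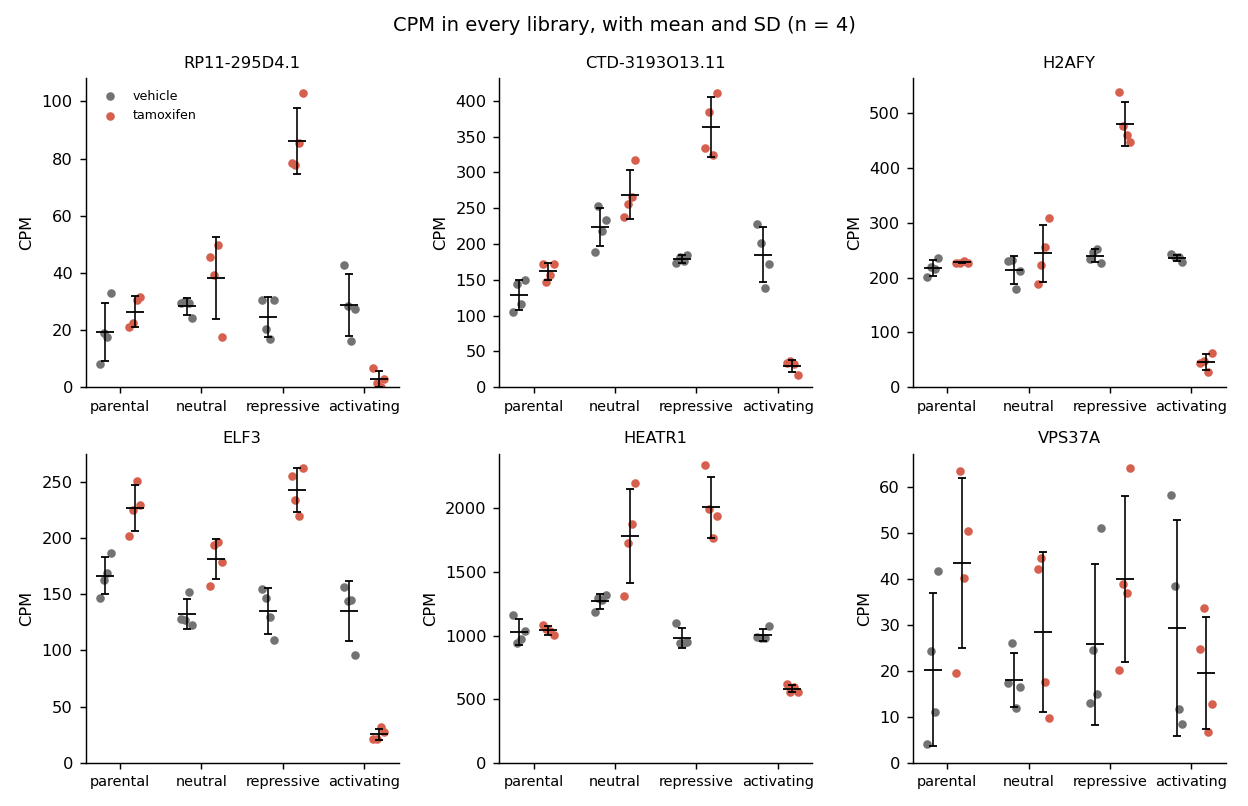
CPM of 6 rows is plotted in every library by line, grey for vehicle and red for tamoxifen, with a bar for the mean and its SD (n = 4). RP11-295D4.1, CTD-3193O13.11, H2AFY, ELF3 and HEATR1 separate in the activating and repressive lines, while the groups of VPS37A overlap in every line.

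In 10 rows the groups overlapped in both the activating and the repressive line: AC009505.2, ZNHIT2, TMEM138, RP5-955M13.4, RPL28, GJD3, THOC6, MIR3615, CUL5 and VPS37A. ZNHIT2 encodes a zinc finger protein tied to assembly of large complexes, GJD3 a connexin of gap junctions, and VPS37A a subunit of the ESCRT-I sorting complex. The row MIR3615 carries the identifier of the lncRNA SLC9A3R1-AS1 in the annotation and is not a measure of the miRNA. The ratios of ZNHIT2 were 0.631 and 2.05, those of GJD3 0.632 and 1.54, and those of TMEM138, a membrane protein of cilia, 0.540 and 1.58. RP5-955M13.4 had ratios of 0.640 and 1.68, and AC009505.2 had 0.589 and 1.65. In the activating line under vehicle VPS37A had 58.2, 38.4, 11.8 and 8.54 CPM, and MIR3615 had 160, 88.1, 25.1 and 41.0. In both rows the first 2 libraries were above the last 2, all of 1 group. The tamoxifen libraries of VPS37A in the same line had 24.8, 33.7, 6.66 and 12.9 CPM, with the same 2 high.

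These rows moved together from library to library. With each group's mean taken off the log2(CPM + 1) values, the median correlation between pairs of the 10 rows was 0.662 over 32 libraries, against 0.0935 between pairs of the 24 rows that separated in both lines. The split into these rows used the same libraries, so both values are a description. The mean deviation of the 10 rows was lowest in parental vehicle replicate 1, at -1.01, and highest in activating vehicle replicate 1, at 0.84. In the repressive line it was -0.48 and -0.55 in replicate 1 and 0.48 and 0.44 in replicate 4, under vehicle and tamoxifen. In the activating line replicates 1 and 2 were above and replicates 3 and 4 below the mean under both treatments. The deviation had within-group correlations of 0.336 with the number of rows detected, -0.346 with the mitochondrial share and 0.275 with the library total. The part of these quantities in the ratios of the 10 rows was not tested.

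**Figure D5:**
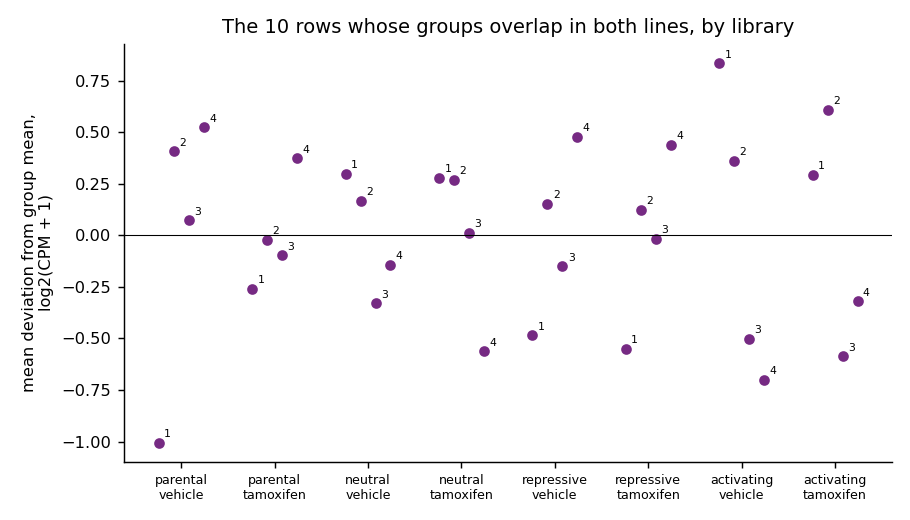
For each of the 32 libraries, numbered by replicate within its group, the mean deviation from the group mean on the log2(CPM + 1) scale is plotted over the 10 rows whose groups overlap in both lines. Values run from -1.01 to 0.84, and replicate 1 lies lowest in both groups of the repressive line and in both groups of the parental line.

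The set also changed with single libraries. Leaving out each of the 16 libraries of the activating and repressive lines in turn gave 34 to 53 rows, and 23 of the 42 members stayed in all 16 selections. None of the 10 overlapping rows did. The 19 members lost at least once also included B3GALT6, CNOT2, CTC-277H1.7, EIF4B, HIST2H3A, HMGN2, HOXA10-AS, PRPF8 and AC106782.20.

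MED28 was the only member in the lists of genes known to respond to androgen, estrogen or the cell cycle, and its calls in the activating (lower) and repressive (higher) lines follow from the choice of members. Among 28 genes that androgen raises, 11 were tested, and in the repressive line 5 were lower (FKBP5, PMEPA1, KLK3, SLC45A3 and CENPN). In the activating line 6 of the 11 were higher (FKBP5, PMEPA1, HERC3, KLK3, CENPN and ZBTB10), and SLC45A3 was lower, where 22.0% of tested genes were higher and 22.8% lower. Among tested genes of the repressive line these shares were 7.8% and 9.99%. FKBP5, a chaperone gene that androgen induces, had 2 to 11 counts in the vehicle libraries of the activating line and 59 to 79 in its tamoxifen libraries. The repressive line had 3 to 8 and 0 to 1. In the neutral and parental lines 0 of the 11 passed, at medians of 0.04 and 0.08.

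The other lists held few tested genes. Of 4 tested of 17 genes that androgen lowers, HSD17B6 was lower in the activating and MYC in the neutral line, and 0 passed in the repressive line. Of 12 genes that estrogen raises, 1 was tested and did not pass in any line. Among the S phase genes, 5 of 43 were tested, and in the activating line FEN1 was higher and CCNE2 and TYMS were lower. Among the G2/M genes 8 of 54 were tested, and 6 were lower in the activating line (NCAPD2, TACC3, RANGAP1, TMPO, MKI67 and HMGB2), at a median log2 fold change of -2.25 against -0.09 over all genes. With KRAB, 1 of the 8, NCAPD2, was higher. Of 10 tested luminal markers, 3 were higher and 4 lower in the activating line and 1 higher and 2 lower in the repressive line. The summed level of the 6 basal and mesenchymal markers was 64.9 to 91.6 CPM in the activating tamoxifen libraries and at most 5.98 in all others, through KRT5, a basal keratin. The 12 luminal markers summed to 7036 to 9663 CPM in the activating tamoxifen libraries and to 903 to 1815 in all others. The 7 stromal and leukocyte markers summed to 0 to 25.1 CPM, nearly all from CD68, which was higher in the activating line (edgeR). The part of these lists in the members' values was not tested.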

How the data were processed

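RNA-seq of 32 LNCaP libraries was used. The authors aligned and quantified the reads against GRCh37 and deposited expected counts per gene, made with Salmon 1.9.0, and their own analysis used DESeq2 1.28.0, per the submitters' processing notes. The annotation release and strand setting are not given in the sources used here. The deposited estimated counts were rounded to whole numbers for tests, and all 32 columns were used. Genes were filtered with edgeR's filterByExpr over all groups. The libraries of each comparison were then scaled by TMM and tested by quasi-likelihood F-tests (edgeR 4.0.16, R 4.3.3), with Benjamini-Hochberg adjustment and a threshold of 0.05. TMM-scaled CPM ratios used factors from all 32 libraries. DESeq2 1.42.0, its size factors, no filter, a replicate block and left-out libraries were alternatives. Scripts were tested on simulated data. Positions and opposite-strand exons came from GENCODE lifted to GRCh37, promoters from RefSeq.

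The members and lists were chosen with earlier results of these data known. Members were ordered by the smaller of their 2 absolute log2 ratios. The first 12 are given in every library of both lines, and any member called in an independent comparison, in a list or nearest a threshold is named, with its opposite-strand partner. Other members, the strand and marker rows, and the rows that overlap in both lines were named after their values were seen. Library totals were 454996 to 1164823, with 1.45 to 25.8 chi-square per gene over 48 replicate pairs, so none was taken as a duplicate. Some gene-level results of the lists are not reported here.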

Additional observations from a re-analysis of the deposited data

Results flagged for a closer look

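Of 128 groups of 4 libraries checked for 16 members, 7 held a library far from the other 3, measured as the gap to the nearest library over the group's range, and chance flags about 1 in 20 groups. The distant values were 24.1 CPM for RP11-295D4.1 in neutral vehicle replicate 4, 91.6 for RPL41 in neutral tamoxifen replicate 4 and 36.8 for PTP4A1 in activating vehicle replicate 1. PTMS had 209 CPM in neutral tamoxifen replicate 1, and B3GALT6 had 76.9 in parental vehicle replicate 3. HEATR1 had 1097 CPM in repressive vehicle replicate 1 and 1079 in activating vehicle replicate 4.

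The response to tamoxifen differed between the neutral and the parental line in 3 members by the interaction test (edgeR), with differences of log2 fold changes of 0.97 for RP11-2C24.6, 0.72 for RP4-594I10.3 and 0.62 for HEATR1, each larger in the neutral line.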

How the results depend on the processing

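The number of rows that met the rule was 42, and it was 65 under TMM-scaled CPM (26 of the 42 among them), 3 with an activating ratio of 0.5 or less and a repressive ratio of 2 or more, 22 at a floor of 50 CPM, 78 at a floor of 10 CPM, and 34 to 53 with single libraries left out. Without mitochondrial rows it was 42, of which 41 were shared. Neutral calls among the members numbered 8, and 4 to 13 with single libraries left out. DESeq2 gave 8 (6 shared), its size factors 9 and no filter 11. Parental calls numbered 0, with 4 without a filter on low counts and 0 to 1 with single libraries left out. Vehicle calls numbered 4 to 7 and interaction calls 2 to 3 with single libraries left out. The shares of all genes called under each alternative were not counted here, so these numbers show only how the calls among members moved. The median log2 fold change of members ran from 0.194 to 0.356 in the neutral line and from 0.0913 to 0.184 in the parental line with single libraries left out, and no direction reversed. The causes of these changes were not tested.

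With the replicate number as a block, the neutral line gave 11 calls among the members, the parental line 3, the vehicle comparison 4 and the interaction 3. The share of all genes called with the block was not counted here. Same-numbered libraries had correlations of deviations from -0.00676 to 0.154 in the neutral line and from -0.0261 to 0.181 in the parental line and were not all above 0.1, and the labels do not say what a number marks, so the libraries were not treated as paired. Their own number was the best match for 2 of 4 neutral and 3 of 4 parental libraries, a hint from the data and not from the design.

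Depth limits these results: the members had a median of 37 counts per library, so for rows with few counts a difference within counting error and library spread was not detectable.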
